A study of Homo sapiens with 12 samples.

Results

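The minor spliceosome was followed here through 10 genes: the 4 small nuclear RNA (snRNA) genes RNU4ATAC, RNU6ATAC, RNU11 and RNU12, and 6 genes for proteins of the U11/U12 particle, RNPC3, SNRNP25, SNRNP35, SNRNP48, ZCRB1 and PDCD7. They were chosen by name, with earlier results of these data known. All 10 are among the 60483 genes counted in total RNA, and the 4 snRNAs are among the 10796 annotated features of the small RNA libraries, where they were found by their hg38 positions. The cells were HEK293, an established human embryonic kidney line, in Flp-In T-REx derivatives that produce, under doxycycline, either a catalytic mutant of DIS3L2 (mut) or wild-type DIS3L2 (WT). In both lines the protein is FLAG-tagged at its C-terminus and its coding sequence is recoded, and the same construct makes sh-miRNAs against the cell's own DIS3L2 mRNA. Both lines received 100 ng/ml doxycycline for 3 days. Each line gave 3 libraries of total RNA, depleted of rRNA, and 3 of small RNA, treated with TAP and selected for size, 20 to 200 nt by the sample labels. It is not stated whether a line was 1 clone or several, or whether replicates came from separate cultures. The p-values therefore measure only how far these libraries differ, and that spread may be technical.

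The minor spliceosome removes the rare introns of the U12 type. U11 pairs with the 5′ splice site and U12 with the branch point, held together in 1 particle by the proteins studied here, and U4atac then delivers U6atac, which forms the catalytic centre with U12. RNA polymerase II makes U4atac, U11 and U12, whose unfinished forms carry 3′ extensions, and RNA polymerase III makes U6atac. DIS3L2 is a cytoplasmic exonuclease that degrades RNAs from the 3′ end and prefers those with a tail of uridines, among them immature and faulty small structured RNAs.

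The total RNA libraries held 8467957 to 9009114 counts in genes in mut and 8315986 to 12675042 in WT. The small RNA libraries held 503699 to 1219718 fragments in mut and 493314 to 585737 in WT. Reads that overlap more than 1 gene made up 8.60% to 9.86% of the deposited total RNA reads in mut and 6.90% to 8.28% in WT, and reads with several alignments made up 37.3% to 42.0% in mut and 30.5% to 39.5% in WT. Reads in no gene made up 12.3% to 13.7% in mut and 16.6% to 19.4% in WT. The deposited table keeps these 3 classes out of the gene counts, and their part in the changes given here was not tested. DIS3L2 itself, whose count may add transgene and endogenous reads, averaged 1092 ± 51.6 CPM (counts scaled to library size by the TMM method) in mut and 784 ± 25.8 CPM in WT (SD, n = 3 each). Of 7 genes typical of HEK293 cells, all but NEFM passed the filter. VIM, KRT8, KRT18, NEFL and INA were higher (adjusted p under 0.05 by edgeR), and LIN28B was lower. Over all tested genes 13% were higher and 14.2% lower. The summed level of the 7 genes, most of it VIM, was 1931 to 2043 CPM in mut and 1642 to 1772 CPM in WT. Of 4 blood markers, CD3E and HBB had no count, and the summed level was at most 0.235 CPM in mut and 0.246 CPM in WT. The 3 fibroblast markers summed to 4.48 to 6.70 CPM in mut and 2.59 to 3.52 CPM in WT, with COL1A1 and COL3A1 higher, and the part of such a shift in the results was not tested.

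In total RNA the 2 snRNAs of the U4atac/U6atac pair were higher in mut than in WT, RNU4ATAC by 16-fold and RNU6ATAC by 1.74-fold. Among the 6 protein genes SNRNP25 was higher by 1.21-fold, and no other passed the test. RNU11 and RNU12 had almost no counts in these libraries. In the small RNA libraries all 4 snRNAs had enough fragments to be tested, and none passed the test. A gene passed, or was called, at an adjusted p under 0.05. In bulk RNA a shift in the mix of cells and a change per cell cannot be told apart. The plot of snRNA levels by library shows both assays.

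**Figure D1:**
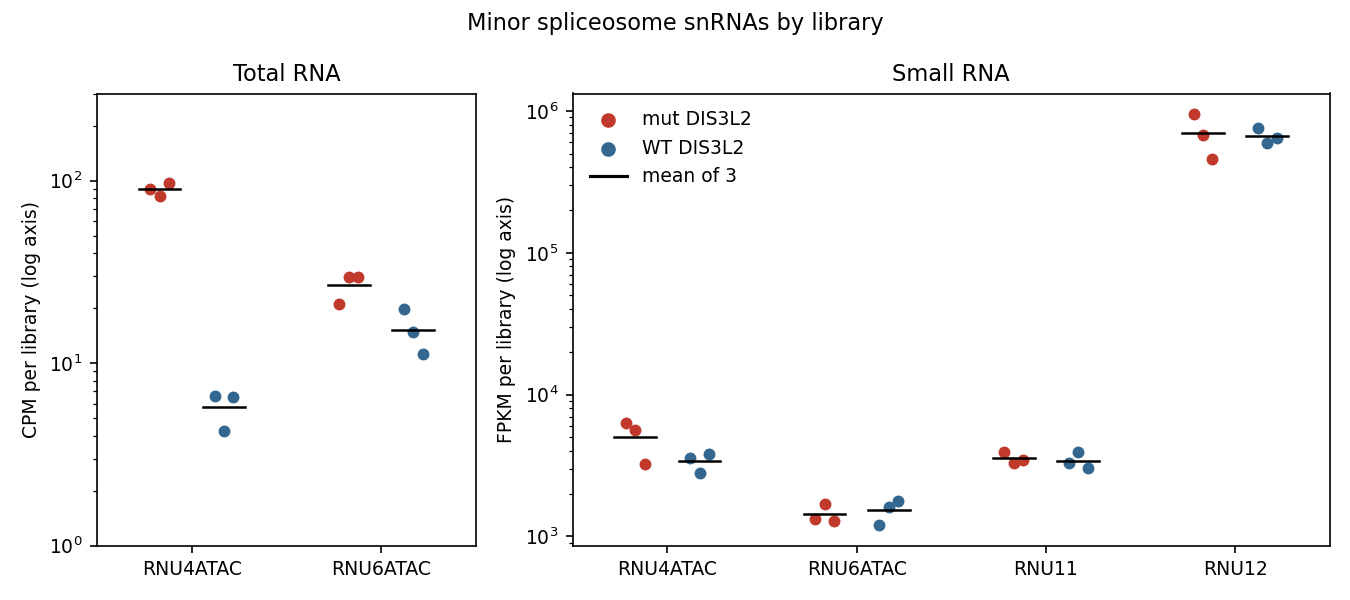
Level of the minor spliceosome snRNAs in each library (points) and the mean of 3 (bar), in total RNA as CPM and in small RNA as FPKM, both on log axes, with mut in red left of WT in blue. RNU4ATAC in total RNA stands at 82.8 to 97.4 CPM in mut against 4.23 to 6.62 CPM in WT, while in small RNA the mut and WT points of every snRNA overlap.

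RNU4ATAC (ENSG00000264229.1, hg38 chromosome 2, 121530880 to 121531009, plus strand) encodes U4atac, the partner that holds U6atac inactive until the intron is bound. Its gene counts were 804, 705 and 848 in mut and 64, 54 and 53 in WT. Scaled by the TMM method to CPM, these were 89.8, 82.8 and 97.4 CPM in mut and 6.62, 4.23 and 6.51 CPM in WT. Every mut library lay far above every WT library. The log2 fold change was 4.0 (SE 0.12, 95% interval 3.76 to 4.24, adjusted p = 7.5e-20 by edgeR's quasi-likelihood test with Benjamini-Hochberg adjustment over 14409 genes). It was the 6th largest increase among the genes tested. Over the alternatives computed the log2 fold change ran from 3.71 to 4.12.

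RNU6ATAC (ENSG00000221676.1, chromosome 9, 134164439 to 134164564, minus strand) encodes U6atac, which pairs with the 5′ splice site and takes part in catalysis. It had 188, 253 and 258 counts in mut and 192, 189 and 91 counts in WT. As CPM, the mut libraries stood at 21.0, 29.7 and 29.6 CPM and the WT libraries at 19.9, 14.8 and 11.2 CPM. The groups did not overlap, but the lowest mut library was only just above the highest WT library. RNU6ATAC rose by a log2 fold change of 0.80 (SE 0.14, 95% interval 0.50 to 1.09, adjusted p = 0.000146 by edgeR). With the trend of change on gene span removed, the value was 0.51, with an adjusted p of 0.00353.

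RNU11 and RNU12 did not pass the filter on low counts in total RNA. RNU11 (ENSG00000274978.1, chromosome 1, 28648600 to 28648734, plus strand), the source of the 5′ splice site RNA U11, had 6, 0 and 5 counts in mut and 1, 0 and 0 counts in WT. The sums of 11 in mut and 1 in WT, set against library size, gave a ratio of 12.9 with an exact 95% interval of 1.87 to 553 that covers counting error only. With no filter on low counts, RNU11 was tested among 31913 genes and called higher (adjusted p = 0.0324 by edgeR), although mut library 2 had 0 counts, like WT libraries 2 and 3. RNU12 (ENSG00000276027.1, chromosome 22, 42615244 to 42615393, plus strand), the source of the branch point RNA U12, had 0 counts in all 6 libraries. A count of 0 allows up to 3 counts a library, which is 0.335 to 0.352 CPM in mut and 0.235 to 0.369 CPM in WT. Reads over more than 1 gene or with several alignments stand outside these counts. This floor and the RNU11 ratio therefore describe counts, and may not give the level of the RNA. The part of such reads at RNU11, which lies inside the span of the gene TAF12-DT, was not tested.

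Of the 10 genes, 8 passed the filter on low counts in total RNA. RNU4ATAC, RNU6ATAC and SNRNP25 were called higher and 0 were called lower, beside 13% of the 14409 tested genes called higher, 14.2% called lower and 27.2% in either direction. Those 3 also had all mut libraries above all WT libraries, and ZCRB1 had all mut libraries below all WT libraries. Over the tested genes, 19.4% had all mut libraries above and 21.2% had all below.

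**Figure D2:**
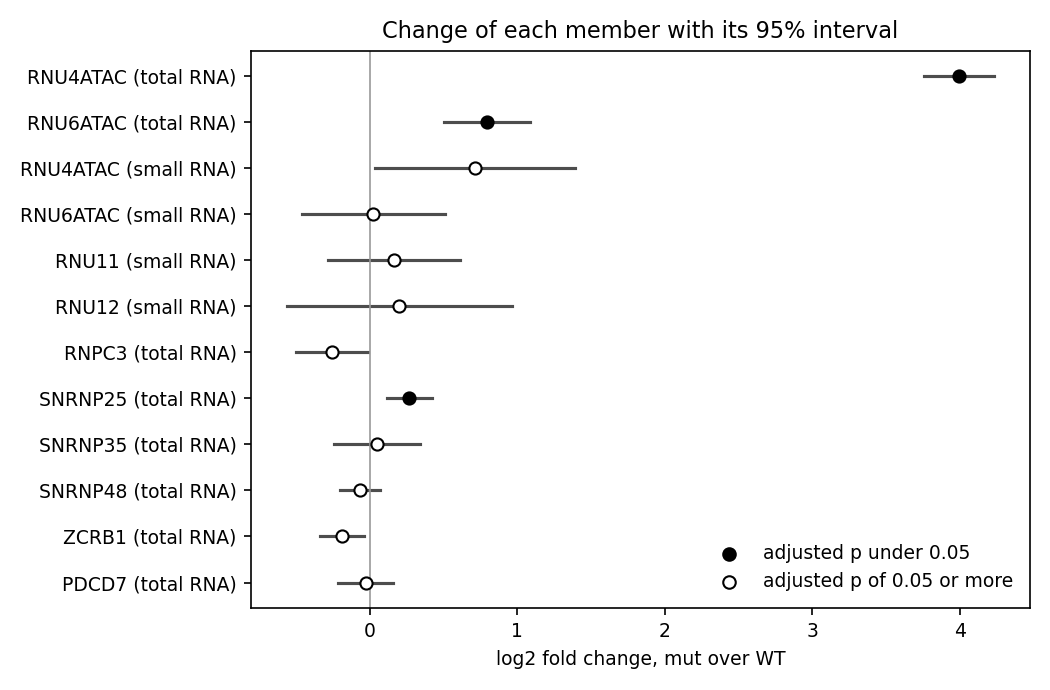
Log2 fold change of mut over WT (points) with its 95% interval (lines) for each gene in total RNA and for the 4 snRNAs in small RNA, with filled points where the adjusted p is under 0.05. RNU4ATAC in total RNA stands alone at 4.0, RNU6ATAC follows at 0.80, and the protein genes lie between -0.26 and 0.27.

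The 2 members of the U4atac/U6atac pair changed order in total RNA. Per unit length, the ratio of RNU4ATAC to RNU6ATAC counts was 4.15, 2.70 and 3.19 in mut and 0.323, 0.277 and 0.565 in WT. RNU4ATAC thus had more reads per base than RNU6ATAC in every mut library and fewer in every WT library. The mean log2 ratio differed by 3.16, mut minus WT, which is 8.90-fold, with an exact two-sided permutation p of 0.1 (adjusted p = 0.2 over 6 ratios). That is the smallest p that 3 against 3 libraries allow. As a level per length on the TMM scale, RNU4ATAC averaged 692 ± 56.4 in mut and 44.5 ± 10.4 CPM per kb in WT (SD, n = 3 each). RNU6ATAC averaged 213 ± 39.8 in mut and 121 ± 34.6 in WT on the same scale.

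Against RNU4-2, the U4 gene of the major spliceosome with the most reads, U4atac also stood higher in mut. This ratio was chosen after the values were seen. Per length it was 0.166, 0.133 and 0.113 in mut and 0.00886, 0.00855 and 0.0140 in WT, with no overlap. The log2 difference was 3.73 (exact permutation p = 0.1, adjusted p = 0.2). RNU4-2 itself had a log2 fold change of 0.25 (adjusted p = 0.148 by edgeR) and RNU4-1 one of 0.29 (adjusted p = 0.106).

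The small RNA libraries gave another order of levels. U12 was the second most abundant annotated feature in both groups, with 14.3%, 10.1% and 6.92% of all fragments in mut and 11.3%, 8.90% and 9.68% in WT. RNU12 averaged 696000 ± 245600 FPKM (fragments scaled to feature length and depth) in mut and 664300 ± 82220 FPKM in WT (SD, n = 3 each). RNU11 averaged 3576 ± 339 FPKM in mut and 3425 ± 465 FPKM in WT. RNU4ATAC averaged 5030 ± 1607 FPKM in mut and 3379 ± 525 FPKM in WT. RNU6ATAC was lowest, with 1435 ± 218 FPKM in mut and 1532 ± 302 FPKM in WT. RNU12 stood above the other 3, and RNU6ATAC below them, in every library. RNU11 and RNU4ATAC overlapped in both groups. How far capture of each RNA during library preparation sets this order was not tested.

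RNU4ATAC in small RNA had 578, 865 and 206 fragments in mut and 232, 175 and 283 fragments in WT. At library depth these were 6287, 5584 and 3220 FPKM in mut and 3541, 2793 and 3804 FPKM in WT. Mut libraries 1 and 2 lay above all WT libraries, and mut library 3 lay within the WT range, so the groups overlapped. The log2 fold change was 0.71 (SE 0.30, 95% interval 0.03 to 1.39), and it did not pass the test (adjusted p = 0.695 by edgeR over 559 features, unadjusted p = 0.0419). Without mut library 3 it was 1.0 with an adjusted p of 0.0106, and 30 features were then called instead of 1. Across its alternatives the adjusted p ran from 0.0106 to 1.0.

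RNU6ATAC had 121, 259 and 82 fragments in mut and 78, 100 and 132 fragments in WT, or 1327, 1685 and 1292 FPKM in mut and 1200, 1609 and 1789 FPKM in WT. The groups overlapped fully, and the log2 fold change was 0.02 (95% interval -0.46 to 0.51, adjusted p = 0.989 by edgeR). RNU11 had 384, 542 and 233 fragments in mut and 226, 261 and 240 fragments in WT. Its libraries spanned 3316 to 3959 FPKM in mut and 3058 to 3948 FPKM in WT, with a log2 fold change of 0.17 (95% interval -0.28 to 0.61, adjusted p = 0.856). The deposited table lists RNU11 under a pair of nearly identical transcripts, of 134 and 131 nt, and the first is given here. RNU12 had 103283, 123622 and 34848 fragments in mut and 58387, 43912 and 56672 fragments in WT, and its log2 fold change was 0.20 (95% interval -0.56 to 0.96, adjusted p = 0.882). The 3 mut libraries of RNU12 spread on both sides of the WT libraries.

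In all, 0 of the 4 snRNAs passed the edgeR test in small RNA, beside 0.179% of the 559 annotated features tested. DESeq2 called 0 of the 4 too, and at an unadjusted p under 0.05 RNU4ATAC alone passed, as did 6.80% of all tested features. None of the 4 had all mut libraries above all WT libraries, and 7.33% of the features did. The intervals allow log2 changes up to 1.39 for RNU4ATAC, 0.51 for RNU6ATAC, 0.61 for RNU11 and 0.96 for RNU12.

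The same ratios were taken within each small RNA library. RNU4ATAC over RNU6ATAC, per length, was 4.74, 3.31 and 2.49 in mut and 2.95, 1.74 and 2.13 in WT, above 1 in all 6 libraries. The groups overlapped, and the log2 difference of 0.61 had an exact permutation p of 0.2 (adjusted p = 0.3). RNU4ATAC over RNU12 was 0.00661, 0.00826 and 0.00698 in mut and 0.00469, 0.00471 and 0.00590 in WT. These did not overlap, and the log2 difference of 0.52 had an exact permutation p of 0.1 (adjusted p = 0.2), the smallest possible. RNU11 over RNU12 was 0.00416, 0.00491 and 0.00749 in mut and 0.00433, 0.00665 and 0.00474 in WT (log2 difference 0.05, exact permutation p = 0.9). RNU4ATAC over RNU4-2 was 0.0655, 0.0506 and 0.0953 in mut and 0.0508, 0.0521 and 0.0441 in WT (log2 difference 0.48, exact permutation p = 0.3).

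The difference between the assays was tested in 1 fit of the 87 genes that passed the filters of both. For RNU4ATAC the change in total RNA exceeded that in small RNA by 3.25 on the log2 scale (SE 0.42, 95% interval 2.37 to 4.14, adjusted p = 1.4e-05 by edgeR), the largest difference of the 87 genes. RNU4ATAC was 1 of 2 genes called, or 2.30% of the 87, and RNU6-9, a U6 gene of the major spliceosome, was the other (difference 1.61, adjusted p = 0.0456). With 1 library left out, 1 to 4 genes were called, RNU4ATAC each time. For RNU6ATAC the difference was 0.78 (95% interval -0.00 to 1.57, adjusted p = 0.391). Total RNA gave the larger log2 change for 68 of the 87 genes, with a median change of 0.396 in total RNA and 0.132 in small RNA. RNU11 and RNU12 could not enter this fit, since neither passed the filter in total RNA. In the plot of both assays RNU4ATAC lies far above the line of equal change.

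**Figure D3:**
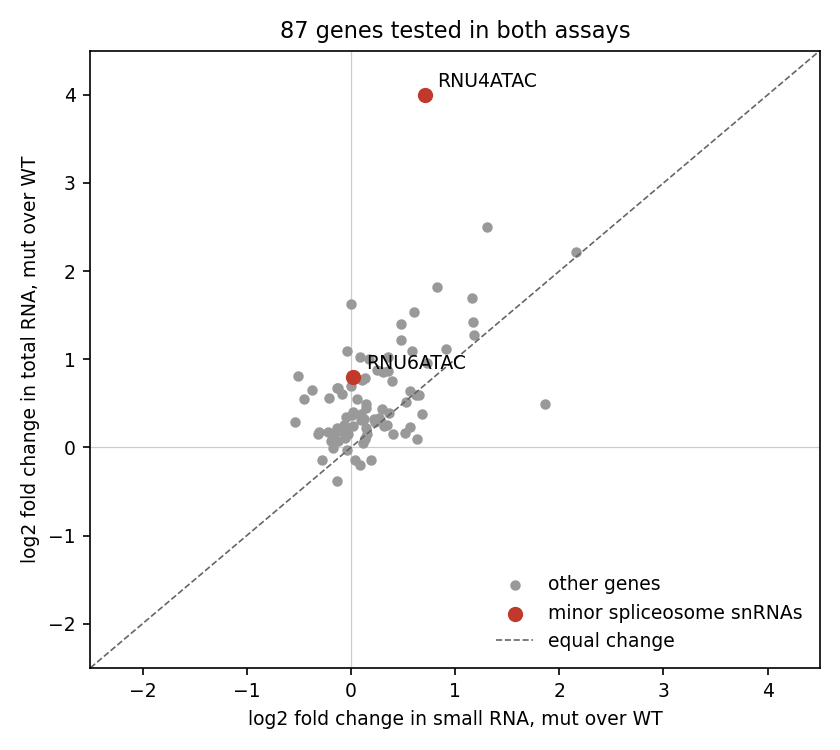
Log2 fold change of mut over WT in small RNA (horizontal) and total RNA (vertical) for 87 genes tested in both assays, with the minor spliceosome snRNAs in red and a dashed line of equal change. RNU4ATAC lies at 0.71 in small RNA and 4.0 in total RNA, and RNU6ATAC at 0.02 and 0.80.

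The reconstructed loci, which the authors assembled from the small RNA reads, reach past the annotated RNAs. The RNU4ATAC locus was 359 nt long and went 229 nt beyond the 3′ end, the RNU11 locus 266 nt beyond and the RNU12 locus 335 nt beyond, while the RNU6ATAC locus went 1 nt beyond the 3′ end and 56 nt beyond the 5′ end. Fragments outside an annotated RNA were taken as the count of its locus less the count of that RNA. How a fragment across its end was counted was not examined, so extended forms may be missed. Few fragments of any locus were counted outside the annotated RNA. For RNU4ATAC these were 7, 6 and 3 fragments in mut and 2, 5 and 5 in WT, which is 0.961% of the locus in mut (exact 95% interval 0.550 to 1.56) and 1.71% in WT (0.886 to 2.97). For RNU11 they were 5, 4 and 3 fragments in mut and 0, 1 and 1 in WT, which is 1.02% in mut (0.531 to 1.78) and 0.274% in WT (0.0332 to 0.987). The mut and WT intervals of RNU11 overlap and cover counting error only, and the difference was not tested. These fragment counts are not scaled to library size. RNU12 had 5 such fragments of 261758 in mut and 1 of 158972 in WT, and RNU6ATAC had 1 of 463 in mut and 0 of 310 in WT, with an exact 95% upper bound of 1.18%. None of the 4 loci passed the test as a whole, beside 0.17% of the 589 loci tested.

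Annotated copies, picked here by their symbols, may take reads from these snRNA genes where they are alike. How alike they are in sequence was not examined. The total RNA table lists 17 copies of RNU4ATAC, of which 4 had any read, with 14 counts in mut and 26 in WT over all libraries. It lists 41 copies of RNU6ATAC, of which 11 had reads, with 23 counts in mut and 22 in WT. The 5 copies of RNU11 had 7 counts in mut and 9 in WT, and the single copy of RNU12 had 1 in mut and 0 in WT. No copy passed the filter. RNU4ATAC itself held 2357 counts in mut and 171 in WT, and RNU6ATAC held 699 in mut and 472 in WT. Reads that map to several places stand outside all these counts.

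Of the genes that overlap the snRNAs or lie next to them, those that were tested were not called. LOC124902297, which overlaps RNU6ATAC, and LOC124902298, the nearest at higher coordinates, had no match by symbol among the counted genes. RNU4ATAC lies inside the span of CLASP1, a microtubule-binding protein gene on the opposite strand, and of CLASP1-AS1, a long noncoding RNA gene. CLASP1 averaged 60.1 ± 2.35 CPM in mut and 68.3 ± 3.40 CPM in WT, a log2 fold change of -0.18 (adjusted p = 0.0577 by edgeR). CLASP1-AS1 held 0, 2 and 2 counts in mut and 1, 1 and 3 counts in WT. RNU11 lies inside the span of the noncoding gene TAF12-DT, on the same strand. TAF12-DT had 2.21 ± 0.118 CPM in mut and 1.82 ± 0.131 CPM in WT, a difference of 0.30 on the log2 scale (adjusted p = 0.429 by edgeR). WDR5, the nearest gene to RNU6ATAC in the table, had a log2 fold change of -0.12 (adjusted p = 0.201), and POLDIP3, 360 nt from RNU12, had 0.10 (adjusted p = 0.326). Of 10 overlapping or nearest genes in the table, 8 were tested, and CLASP1 came nearest to a call. Over the 20 nearest tested protein genes of RNU4ATAC the median log2 fold change was -0.0963, with 1 called higher and 3 lower. The 20 around RNU6ATAC had 2 higher and 1 lower, those around RNU11 had 2 and 0, and those around RNU12 had 2 and 1. Over all tested genes the shares were 13% higher and 14.2% lower.

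The genes most like RNU4ATAC across the 6 total RNA libraries, by Pearson's r of log2(CPM + 1), were ARPC2 (0.998), DNAJA2 (0.997) and AGRN (0.997). ARPC2 and DNAJA2, an actin regulator and a chaperone gene, had log2 fold changes of 0.11 and 0.13. A correlation here mostly follows the step between mut and WT, and 467 genes exceeded 0.95. For RNU6ATAC the 3 most alike were SNORA53 (0.998), a small nucleolar RNA, TTC41P (0.991) and NOL9 (0.991), with 79 genes above 0.95. SNORA53 had 241, 280 and 285 CPM in mut and 230, 200 and 179 CPM in WT, the same order of libraries as RNU6ATAC but for mut libraries 2 and 3.

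The U11/U12 proteins showed small differences. Their plot by library shows overlapping mut and WT points for 4 of the 6 genes, with SNRNP25 and ZCRB1 as the exceptions. Of the 6 genes 1 was called higher and 0 lower, beside 13% and 14.2% of all tested genes, and 4 had a log2 fold change below 0. Their median was -0.0468, beside -0.00757 over all tested genes.

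**Figure D4:**
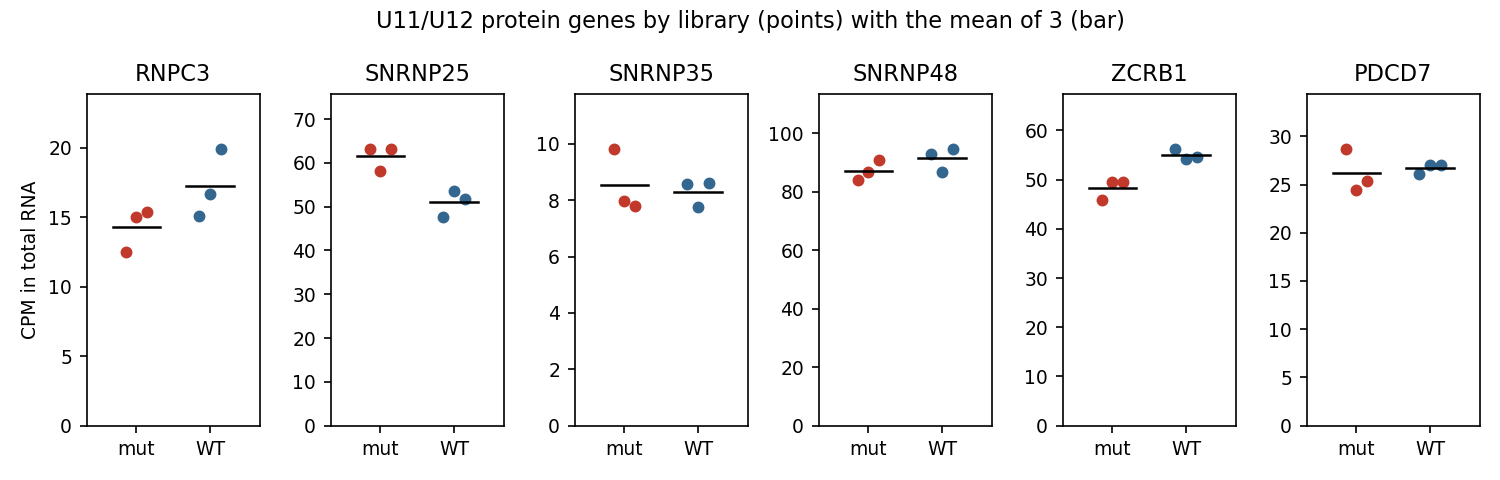
CPM in total RNA for the 6 U11/U12 protein genes, each panel from 0, with 3 mut libraries (red) left of 3 WT libraries (blue) and a bar at the mean. SNRNP25 averages 61.5 CPM in mut and 51.0 CPM in WT, ZCRB1 averages 48.3 CPM in mut and 55.0 CPM in WT, and the other 4 overlap.

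The promoter windows of SNRNP25, the protein gene that was called, and of RNPC3, which had the lowest log2 fold change of the 6, are shown for their sequence. Both are from RefSeq, GRCh38.p14, plus strand, and run 5′ to 3′ from 250 bases before the gene start to 50 after it, at chr16:53578-53877 for SNRNP25 and chr1:103525449-103525748 for RNPC3. Capitals mark CCAAT, or its reverse complement ATTGG, in SNRNP25, and CCGCCC in RNPC3, where the last 2 matches share 1 base.
SNRNP25: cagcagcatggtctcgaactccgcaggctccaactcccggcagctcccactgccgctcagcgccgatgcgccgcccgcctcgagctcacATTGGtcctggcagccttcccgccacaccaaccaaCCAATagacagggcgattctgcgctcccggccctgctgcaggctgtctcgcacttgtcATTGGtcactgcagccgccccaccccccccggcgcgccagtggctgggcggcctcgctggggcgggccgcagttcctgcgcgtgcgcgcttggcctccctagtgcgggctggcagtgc
RNPC3: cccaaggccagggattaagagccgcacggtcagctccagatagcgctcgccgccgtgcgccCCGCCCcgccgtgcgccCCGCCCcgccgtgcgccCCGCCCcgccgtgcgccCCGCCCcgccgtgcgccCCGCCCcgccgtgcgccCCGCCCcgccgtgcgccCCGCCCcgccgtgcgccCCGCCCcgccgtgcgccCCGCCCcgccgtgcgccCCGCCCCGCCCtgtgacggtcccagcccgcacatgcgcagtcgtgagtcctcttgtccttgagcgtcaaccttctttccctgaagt
The CCAAT letters occur 3 times in the SNRNP25 window over both strands, as often or more in 3.26% of 35116 RefSeq promoter windows, and 34.6% hold them at least once. RNPC3 holds CCGCCC 11 times, reached by 34 windows or 0.10%, while 45.0% hold it. These matches in RNPC3 lie in a tandem repeat of a 17 nt unit that fills 175 nt of the window with 10 whole copies. SNRNP25 also holds CCGCCC 4 times, as often or more in 9.06% of windows, not marked here, and RNPC3 holds no CCAAT. SNRNP48 holds 1 CCAAT and 2 CCGCCC, ZCRB1 holds 0 and 1, and PDCD7 holds 0 of both. The window of SNRNP35 was not analysed here. The letters marked were set for each window and not planned beforehand, so the shares of windows test no enrichment. A match is a description of letters, not of binding.

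SNRNP25 (ENSG00000161981.9, chromosome 16, 53828 to 57669), a ubiquitin-like protein of the U11 particle, had 566, 495 and 549 counts in mut and 460, 684 and 421 counts in WT. As CPM this was 63.2, 58.1 and 63.1 CPM in mut and 47.6, 53.6 and 51.7 CPM in WT, with every mut library above every WT library. It rose by a log2 fold change of 0.27 (SE 0.07, 95% interval 0.12 to 0.42, adjusted p = 0.00769 by edgeR). Without WT library 1, its lowest, the value was 0.22 and no longer passed (adjusted p = 0.0694), within a range of 0.00598 to 0.0694 over the alternatives. The 11 nearest tested protein genes, close to the end of the chromosome, had a median log2 fold change of 0.141. Of these, 2 were called higher and 0 lower, beside 13% and 14.2% of all tested genes.

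ZCRB1 (ENSG00000139168.6, chromosome 12, 42312086 to 42326094), which has an RNA recognition motif and a zinc knuckle, had 410, 422 and 431 counts in mut and 544, 692 and 444 counts in WT. As CPM this was 45.8, 49.6 and 49.5 CPM in mut and 56.3, 54.2 and 54.6 CPM in WT, with every mut library below every WT library. The log2 fold change of -0.19 (SE 0.07, 95% interval -0.34 to -0.04) missed the threshold (adjusted p = 0.0549 by edgeR). With the trend on gene span removed it passed, at -0.22 and an adjusted p of 0.0188. The adjusted p ranged from 0.0188 to 0.203 over the alternatives. Among its 20 nearest tested protein genes, 11 were called lower and 0 higher, with a median of -0.272. Over all tested genes 14.2% were called lower and 13% higher.

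RNPC3 (ENSG00000185946.14, chromosome 1, 103525699 to 103555239), which binds the 3′ stem-loop of U12 and bridges it to U11, had 112, 128 and 134 counts in mut and 146, 213 and 162 counts in WT. Its libraries had 12.5, 15.0 and 15.4 CPM in mut and 15.1, 16.7 and 19.9 CPM in WT. The groups overlapped by 1 library, and the log2 fold change of -0.26 (SE 0.12, 95% interval -0.50 to -0.01) did not pass (adjusted p = 0.109 by edgeR). Among the 20 nearest tested protein genes of RNPC3, 6 were called lower and 0 higher, with a median of -0.119. The shares over all tested genes were 14.2% lower and 13% higher. PDCD7 (ENSG00000090470.13, chromosome 15, 65117379 to 65133808), the partner of RNPC3 on the U11 side, spanned 24.4 to 28.7 CPM in mut and 26.1 to 27.0 CPM in WT. Its log2 fold change was -0.03 (95% interval -0.21 to 0.16, adjusted p = 0.851).

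SNRNP48 (ENSG00000168566.11, chromosome 6, 7590198 to 7611967), a zinc finger protein that contacts the 5′ splice site, was the most abundant of the 6 in CPM, with 83.9, 86.7 and 90.8 CPM in mut and 92.8, 86.6 and 94.6 CPM in WT. The groups overlapped, and its log2 fold change was -0.07 (95% interval -0.20 to 0.07, adjusted p = 0.496 by edgeR). SNRNP35 (ENSG00000184209.14, chromosome 12, 123458139 to 123473154), a protein related to SNRNP70 of the U1 particle, had the fewest counts, 88, 68 and 68 in mut and 83, 99 and 70 in WT. This was 9.83, 7.99 and 7.81 CPM in mut and 8.58, 7.75 and 8.60 CPM in WT, with full overlap, and the log2 fold change was 0.05 (95% interval -0.24 to 0.34, adjusted p = 0.826). Among PDCD7, SNRNP48 and SNRNP35, no interval reached past 0.34 in either direction on the log2 scale.

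Other genes of the pathway were counted in the same fit of total RNA. Of 11 other proteins tied to the minor spliceosome, 0 were called higher and 2 lower, and the median was -0.0705 on the log2 scale. The share called lower was near the 14.2% of all tested genes. CENATAC, a protein that binds the U4atac/U6atac tri-snRNP, averaged 10.3 ± 1.75 CPM in mut and 15.3 ± 1.36 CPM in WT (SD, n = 3 each), a log2 fold change of -0.56 (adjusted p = 0.00173 by edgeR). RBM41, a U12-binding protein related to RNPC3, averaged 25.9 ± 3.57 CPM in mut and 38.3 ± 3.01 CPM in WT, also -0.56 (adjusted p = 9.2e-05). ZRSR2, which recognises the 3′ splice site of U12-type introns, had -0.53 and did not pass (adjusted p = 0.0712).

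The proteins that both spliceosomes share had positive medians. Of 14 proteins of the di- and tri-snRNP, 4 were called higher and 0 lower, and the median was 0.123. TXNL4A had the largest change at 0.53 (adjusted p = 1.3e-06 by edgeR), followed by SNRNP40 (0.25), EFTUD2 (0.19) and PRPF8 (0.18). The other 10 were not called, among them PRPF3, PRPF4, PPIH, SNU13 and PRPF31, which sit on the U4/U6 or U4atac/U6atac pair, and the U5 proteins SNRNP200, PRPF6 and DDX23. Of the 7 SF3b proteins, which lie at the branch point in both U2 and U11/U12 particles, SF3B3 (0.38), PHF5A (0.26) and SF3B6 (0.23) were called higher and 0 lower, and the median was 0.0853. Of the 7 Sm proteins, which ring the U4atac, U11 and U12 RNAs, SNRPE (0.42), SNRPD1 (0.33), SNRPG (0.29) and SNRPB (0.18) were called higher and 0 lower, and the median was 0.18. All tested genes had a median of -0.00757, and 13% of them were called higher.

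**Figure D5:**
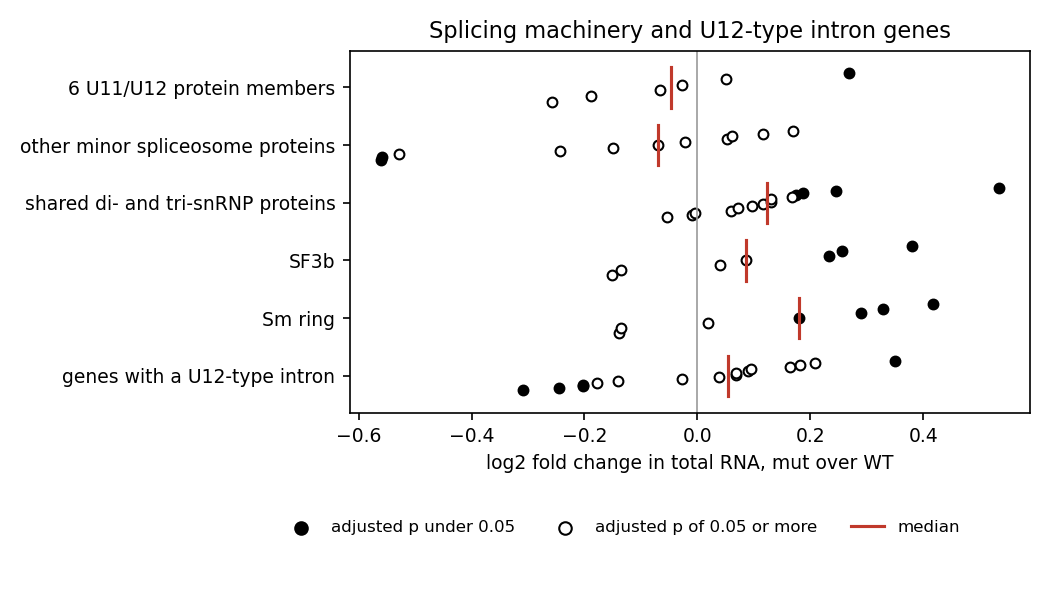
Log2 fold change of mut over WT in total RNA for each tested gene of 6 groups, with filled points where the adjusted p is under 0.05 and a red bar at the group median. The U11/U12 proteins have a median of -0.0468 and the Sm ring one of 0.18.

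Most genes known to carry a U12-type intron were not called. Of 16 such genes 11 did not pass, 1 was higher and 4 were lower, with a median of 0.054, and the share called was near the 27.2% of all tested genes. The cell cycle factor E2F1 averaged 84.2 ± 2.64 CPM in mut and 66.1 ± 3.12 CPM in WT, a log2 fold change of 0.35 (adjusted p = 0.00034 by edgeR). THOC2, an mRNA export factor, fell by 0.31, E2F3, another cell cycle factor, by 0.25 and the kinase gene MAPK8 by 0.20 on the log2 scale. The counts are per gene and give no measure of retained introns, so splicing of U12-type introns was not analysed here.

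Set beside the snRNA genes of the major spliceosome, RNU4ATAC had the largest log2 fold change in total RNA. Of 14 major spliceosome genes listed, 13 were tested in total RNA, 7 were higher and 0 lower. Over all tested genes 13% were called higher and 14.2% lower. All 7 were snRNA genes. RNU1-1 rose by 2.48, RNU6-9 by 1.62, RNU6-2 by 1.58, RNU6-7 by 1.45, RNU5A-1 by 1.41, RNU5B-1 by 1.22 and RNU6-8 by 0.81 on the log2 scale. RNU6-1 had 0.55 and did not pass (adjusted p = 0.163). The 0.80 of RNU6ATAC was close to that of RNU6-8. The U1 protein genes SNRNP70, SNRPA and SNRPC were not called, like 5 of the 6 U11/U12 protein genes. In small RNA, RNU4-1 (0.23), RNU4-2 (0.35), RNU6-9 (-0.00), RNU5A-1 (0.48) and RNU5B-1 (0.48) did not pass either. RNU4ATAC was well below RNU4-2 there, which averaged 80030 ± 40670 FPKM in mut and 69890 ± 16330 FPKM in WT. These genes have many near-identical copies, so values of single copies are uncertain.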

How the data were processed

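Total RNA and small RNA were sequenced from 3 mut and 3 WT libraries each, per the labels. The authors deposited a table of raw counts per Ensembl gene (60483 genes) for each total RNA library. For small RNA the authors deposited, for 15590 features, fragment counts, FPM (a depth-scaled signal) and FPKM. The submitters' processing notes name STAR 2.4.0 and HTSeq 0.6.1, then DESeq2 1.8.2 and SAMtools 1.2-10, with hg38 as the build. Which annotation version was counted, and whether by strand, is not given in the sources used here. Rows naming no gene held 57.8% to 63.2% of the total RNA reads and were left out.

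Symbols matched 56321 gene identifiers. Small RNA features were named by RefSeq position (GRCh38.p14, both ends within 5 nt), which named 5671 of 10796, 10 of them ambiguous. Counts were tested with edgeR 4.0.16 (TMM, filterByExpr, quasi-likelihood F test, R 4.3.3), with Benjamini-Hochberg adjustment at 0.05 over all tested features of an assay. Small RNA library sizes were the denominators of the deposited FPM signal. The assay difference is the interaction term of 1 fit over 12 libraries. CPM are on TMM-scaled library sizes. Intervals are 95%, and exact intervals and the floor of 3 counts cover counting error only. Fits were tested on data simulated with the same set spread for all features of an assay. The rates that follow hold for that setting and may differ in these data. The small RNA fit recovered 23.3% of features changed by 1 on the log2 scale and 100% of those changed by 2. The total RNA fit recovered 81.6% and 99%. False calls made up 5.41% of calls in small RNA and 6.42% in total RNA. The assay difference fit recovered 100% of changes of 2 and of 3, with 4.76% false. DESeq2 1.42.0 and limma 3.58.1 on log2(FPKM + 1) were alternatives, as were other scaling, no filter, a replicate block, removal of a trend on gene span and each library left out.

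All 10 genes are named, and from each other list those past the threshold, except 1 that is not reported here. The genes and lists were chosen with earlier results of these data known. The replicate numbers are not stated to pair libraries, so they were not used as pairs. The sequences of the snRNAs were not used here.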

Additional observations from a re-analysis of the deposited data

Results flagged for a closer look

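RNU4ATAC changed differently in the 2 assays. Its log2 fold change, mut over WT, was 4.0 in total RNA and 0.71 in small RNA, and the difference of 3.25 was tested as an interaction over 12 libraries (adjusted p = 1.4e-05 by edgeR). The difference ran from 2.96 to 3.52 over 14 alternatives, with adjusted p from 3.6e-08 to 0.000379. Reads in no gene (12.3% to 13.7% in mut and 16.6% to 19.4% in WT) and reads over more than 1 gene (8.60% to 9.86% in mut and 6.90% to 8.28% in WT) did not overlap between the groups in total RNA, while reads with several alignments did, and their part in this difference was not tested.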

How the results depend on the processing

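Of 168 values for single genes under alternatives, 155 kept their direction and side of the threshold, 1 lost its call, 2 gained one and 10 changed sign. RNU4ATAC and RNU6ATAC in total RNA kept their calls in all 11 alternatives. Sign changes were all in values that passed no test. In total RNA, leaving out 1 library gave SNRNP35 values from -0.054 to 0.13, with -0.0074 without WT replicate 2, and PDCD7 values from -0.090 to 0.019, with 0.011 without mut replicate 3. In small RNA, RNU6ATAC was -0.089 with library totals alone and -0.086 and -0.085 with limma at pseudocounts of 1 and 10. With a library left out it ranged from -0.16 to 0.17, with -0.058 without WT replicate 1, and RNU12 ranged from -0.18 to 0.48. The RNU11 to RNU12 ratio ranged from -0.19 to 0.24 with a library left out, and was -0.19 without mut replicate 3, -0.07 without WT replicate 1 and -0.006 without WT replicate 3. The cause was not tested.

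In total RNA, 1867 genes were higher and 2049 lower. DESeq2 called 1315 higher and 1357 lower, and leaving out 1 library gave 1274 to 2109 lower, the fewest without WT replicate 3. In small RNA the 1 called feature became 14 with no filter, 2 with DESeq2 and 0 to 30 with a library left out, 30 without mut replicate 3, and the called snRNAs then ranged from 0 to 1. The loci gave 0 to 42 with a library left out and 0 with the block, alternatives added after the data were seen. The assay difference had 2 calls, 1 with the replicate block and 1 to 4 with a library left out, RNU4ATAC in each. With the replicate block, total RNA had 1675 higher and 1845 lower and small RNA had 1. Same-numbered libraries correlated, in deviations from group means, at -0.13, -0.12 and 0.03 in total RNA and 0.19, -0.14 and -0.34 in small RNA. Whether they share a batch or culture cannot be told from so few libraries. With no filter RNU11 was called in total RNA (adjusted p = 0.0324), which with RNU4ATAC, RNU6ATAC and SNRNP25 made 4 calls. Why RNU11 and RNU12 had so few counts there was not tested. With 3 libraries a group the permutation tests cannot go below 0.1.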
